A study of Rattus norvegicus with 9 samples.

Results

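The lysosomal genes described here are 36 rat genes that code for soluble lysosomal enzymes, their activators and the main proteins of the lysosomal membrane. They were chosen by symbol from common knowledge of the organelle, with earlier results of these data known. The rule kept those above 0 TPM (transcript abundance per unit of transcript length, scaled to a total of 1000000 in each library) in at least 3 of 9 libraries. All 36 were found among the 17602 genes of the table, and all 36 were above 0 TPM in every library. RNA came from the knees of wild-type male Lewis rats in 3 groups, each with 3 libraries labelled as biological replicates. In the Intact group the tissue was synovium, the lining of the joint, dissected beside the medial meniscus of knees without surgery. In the Sham group it was that synovium 1 week after the joint capsule had been opened and closed. The pMx group was tissue regenerating at the meniscus 1 week after partial medial meniscectomy, the surgical removal of the anterior portion of that meniscus, and the synovium around it had been cut away. The pMx and Sham groups therefore differ in both the operation and the tissue sampled, and the contribution of each cannot be told apart. The rats were young adults according to the methods of the study, in which pMx was done on both knees and Intact rats had no operation. No source says whether libraries of 1 group came from separate animals.

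Lysosomes are acidic, membrane-bound compartments in which proteins, glycans and lipids are taken apart. Their proteases, glycosidases, sulfatases and lipid hydrolases are made as precursors, mostly tagged with mannose 6-phosphate and carried to the lysosome by receptors for that tag, while heavily glycosylated membrane proteins line the compartment and protect it from its own enzymes. Many of the genes share a short promoter element read by TFEB and related factors, so that the compartment can be expanded as a unit. Macrophages and other matrix-degrading cells are rich in lysosomes, and the lysosomal beta-galactosidase coded by Glb1 is the enzyme behind the staining used as a marker of senescent cells, the question of the study from which these libraries come. In bulk tissue such as this, a lower level can come from fewer cells of a type or from less RNA per cell, which cannot be told apart.

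The promoter element named above has a core of 8 letters, CACGTGAC, and it was looked for on both strands (GTCACGTG on the other) in RefSeq promoter windows of assembly GRCr8, which run from 250 bases before to 50 bases after each gene's start. Windows were present for 30 of the 36 genes, and 7 of those 30 (23.3%) held it, against 3.05% of the 15327 windows of genes tested and 1.85% of all 33469 windows. By gene, in lists described below, the core was in 44.4% of 9 sorting genes and 23.8% of 21 other lysosomal membrane genes. It was in 33.3% of 3 cystatins, 14.3% of 14 V-ATPase genes and 8.33% of 12 genes of TFEB and mTOR sensing. The lowest shares were 6.67% of 15 other hydrolases and 5.56% of 18 autophagy genes. The GC content of the windows was alike, with a median of 60.2% for the 30 and 59.0% for the genes tested. The core contains the E-box CACGTG, which alone was in 26.7% of the 30 windows and in 8.28% of the windows of genes tested. The 7 genes were Ctsd, Glb1, Gaa, Sgsh, Mcoln1, Idua and Lamp1. Below are 30 bases around 1 copy from each, the one that begins closest upstream of the start, on the strand of the gene and with the core in capitals. They are shown because the core was in a larger share of these windows than of windows at large, although 23 of the 30 lacked it. The larger share is no independent result, because the element was looked for as one that many lysosomal genes are known to share.
Ctsd (chr1:206968813-206968842, minus strand): cgcccgcgtctCACGTGACccgttgagggg
Glb1 (chr8:122963605-122963634, plus strand): gcggctccggaGTCACGTGgcctgcagagg
Gaa (chr10:105028277-105028306, plus strand): cgcccacaaacCACGTGACccacgctgccc
Sgsh (chr10:105112028-105112057, minus strand): agcctgccgtgCACGTGACcctgtggaggg
Mcoln1 (chr12:6358223-6358252, plus strand): gcgtcaagcttGTCACGTGttcgacccagg
Idua (chr14:1190915-1190944, minus strand): cctggcgaatgGTCACGTGgggcgttaccc
Lamp1 (chr16:83075083-83075112, minus strand): gcggcactgttCACGTGACaggcgctgccg

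Lamp1 held 4 copies in its window, Ctsd and Mcoln1 held 2 each, and the others held 1. The 250 bases upstream of Glb1 and of Ctsl are shown next, because of the 36 genes they rose most and fell most from Sham to pMx. The Glb1 window held 1 copy of the core, in capitals, and the Ctsl window held none.
Glb1 (chr8:122963468-122963717, plus strand): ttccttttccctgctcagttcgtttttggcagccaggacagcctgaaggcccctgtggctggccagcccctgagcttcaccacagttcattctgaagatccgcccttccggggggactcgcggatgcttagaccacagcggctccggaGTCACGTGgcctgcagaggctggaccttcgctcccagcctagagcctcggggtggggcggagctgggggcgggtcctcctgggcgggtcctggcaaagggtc
Ctsl (chr17:769854-770103, plus strand): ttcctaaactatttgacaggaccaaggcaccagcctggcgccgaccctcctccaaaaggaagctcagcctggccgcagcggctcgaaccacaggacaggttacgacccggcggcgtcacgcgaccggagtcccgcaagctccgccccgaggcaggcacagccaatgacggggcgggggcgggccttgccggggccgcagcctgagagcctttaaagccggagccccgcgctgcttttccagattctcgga

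A match describes letters in a window and does not show that a factor binds there.

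The 36 genes were well expressed in every group. Their levels ran from 4.46 TPM for Sgsh, a sulfatase that acts on heparan sulfate, in Intact 3, to 3583 TPM for Ctsb, the cysteine protease cathepsin B, in pMx 2. By mean TPM, 4 of them were in the top 1% and 14 in the top 5% of the 16512 genes tested. The highest were Ctsb, Cd63, a tetraspanin of late endosomes and lysosomes, and Ctsl, the cysteine protease cathepsin L.

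**Figure D1:**
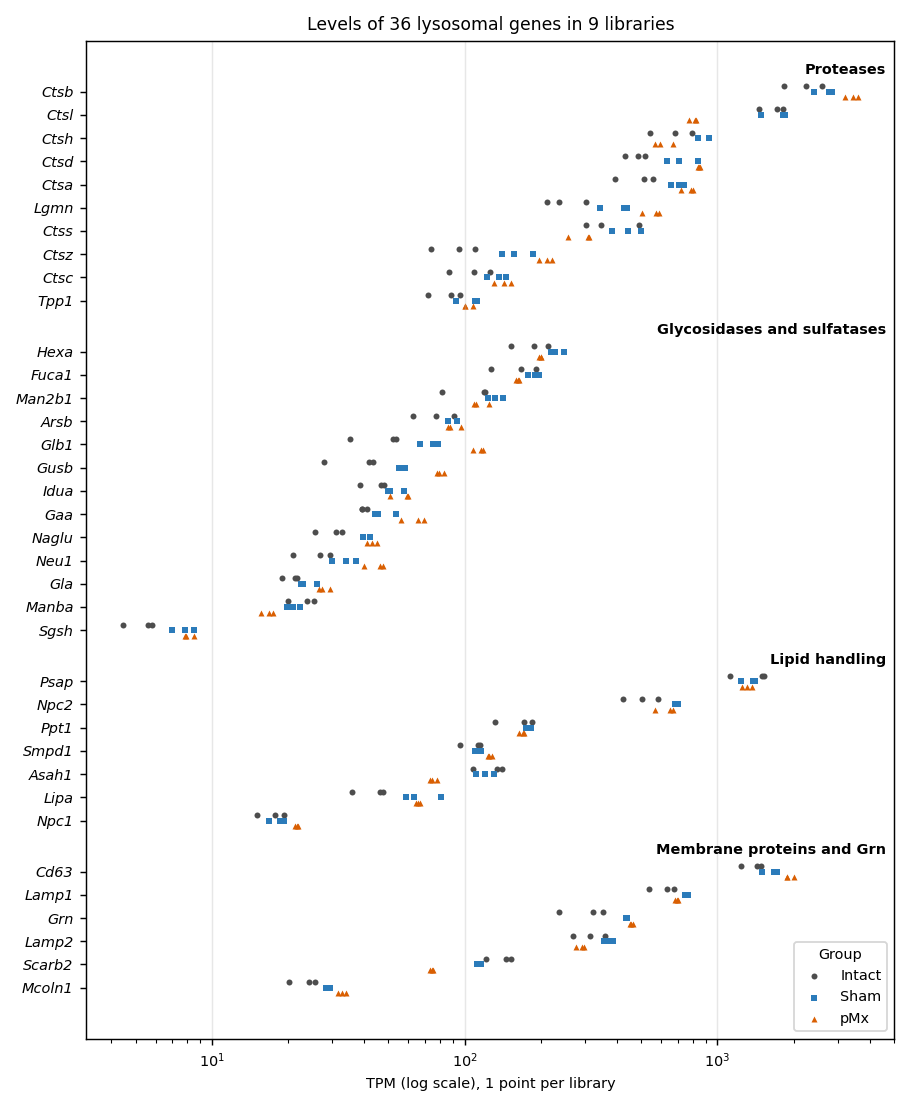
TPM of the 36 lysosomal genes in each of the 9 libraries, by role, on a log axis; circles are Intact, squares Sham and triangles pMx, 1 point per library. The pMx points lie to the left of all others for Ctsl, Asah1 and Scarb2 and to the right of all others for Lgmn, Glb1 and Gusb.

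Before the comparisons, 1 library stood apart. A set of 10 skeletal muscle markers made up 4.25% of the TPM of Intact 3, against 0.00581% to 0.296% in the other 8 libraries, and in Intact 3 every one of the 36 lysosomal genes was at the lowest level of its group. Its part in the results was not tested beyond leaving it out and the fits added for muscle transcripts that are described with the processing. Counts of calls without it are given below for the 36 genes and for each list of other genes whose counts it changed. The spread was widest in Intact, with a median coefficient of variation over the 36 genes of 15.3% in Intact, 7.11% in Sham and 4.51% in pMx. Sham 3 was the lowest of its group for 26 genes and pMx 3 for 25.

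The groups were compared in 1 limma fit of log2(TPM + 1) over all 9 libraries, with Benjamini-Hochberg adjustment over the 16512 genes tested. A gene is said to rise or fall where its adjusted p was below 0.05, and to be a DEG (differentially expressed gene) where its log2 fold change was also beyond 1 in either direction. All fold changes below are log2 differences of TPM + 1. The 3 comparisons share libraries, so they are not independent of each other.

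The first question was how the regenerating tissue differs from operated synovium. In pMx versus Sham, the lysosomal genes went both ways. 5 of 36 rose (Glb1, Gusb, Lgmn, Gaa and Neu1), 7 fell (Ctsl, Asah1, Scarb2, Ctss, Ctsh, Lamp2 and Manba) and 24 did not pass the test. Over all genes tested, 17.7% rose and 18.9% fell (36.6% in either direction), so the lysosomal genes were called about as often as genes at large. The median fold change was 0.06 for the 36 genes and -0.01 for all genes tested. 1 gene, Ctsl, was a DEG and was lower, where 8.21% of all genes tested were DEGs, 3.36% higher and 4.85% lower. Without Intact 3, which enters this comparison only through the shared estimate of spread, 12 genes rose and 11 fell, with a median of 0.06, where 22.1% of all genes tested rose and 23.5% fell. By role, that was 3 higher and 3 lower among the proteases, 5 and 4 among the glycosidases and sulfatases, 2 and 1 among the lipid-handling genes and 2 and 3 among the membrane proteins with Grn.

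Ctsl had the largest fall. It was at 1817, 1712 and 1459 TPM in Intact 1 to 3, at 1811, 1483 and 1853 TPM in Sham 1 to 3, and at 813, 819.7 and 771 TPM in pMx 1 to 3. All pMx libraries were below all others, and Intact and Sham overlapped. The fold change of pMx versus Sham was -1.09 (SE 0.11, adjusted p = 0.000194 from limma), and that of Sham versus Intact was 0.04 (adjusted p = 0.842). The call held in all 21 other fits and at an adjusted p of 0.01.

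The other papain-type cathepsins that fell are both abundant in antigen-presenting cells. Ctss, cathepsin S, which trims the invariant chain in antigen presentation, was at 499.8, 383 and 442 TPM in Sham 1 to 3 and at 307, 309.7 and 256 TPM in pMx 1 to 3. The groups did not overlap, and the fold change was -0.60 (SE 0.18, adjusted p = 0.0288 from limma). Ctsh, cathepsin H, an aminopeptidase, was at 928, 835 and 927 TPM in Sham 1 to 3 and at 591, 668 and 568 TPM in pMx 1 to 3. Its fold change was -0.56 (SE 0.14, adjusted p = 0.0124), and its mean of 609 ± 52.6 TPM (SD, n = 3) in pMx lay within the Intact range of 539 to 794 TPM.

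Lgmn, legumain, which cleaves after asparagine and matures other lysosomal proteases, was the protease that rose. Its levels were 303, 236 and 212 TPM in Intact 1 to 3, 429, 439 and 343 TPM in Sham 1 to 3, and 574, 588 and 504 TPM in pMx 1 to 3. The groups formed 3 steps with no overlap, and the fold change of pMx versus Sham was 0.46 (SE 0.15, adjusted p = 0.0358 from limma). Ctsb followed a like course without passing the test. It was at 2578, 2241 and 1828 TPM in Intact 1 to 3, at 2767, 2844 and 2413 TPM in Sham 1 to 3, and at 3429.8, 3583 and 3205 TPM in pMx 1 to 3. All pMx libraries were above all Sham libraries, with a fold change of 0.35 (SE 0.14, adjusted p = 0.0781 from limma). The other 5 proteases did not pass the test in this comparison, with fold changes from -0.02 for Tpp1, a peptidase that removes tripeptides, to 0.38 for Ctsz, and with 0.08 for Ctsc, which activates the granule proteases of leukocytes, 0.14 for Ctsa and 0.23 for Ctsd.

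The make-up of the protease pool differed between the groups. Of the summed TPM of the 10 protease genes, Ctsl took 26.0% ± 1.25 in Intact, 21.6% ± 2.91 in Sham and 10.4% ± 0.199 in pMx, while Ctsb took 34.4% ± 0.516, 33.6% ± 1.93 and 44.0% ± 0.274 (SD, n = 3 each). The ratio of Ctsb to Ctsl within a library was 1.33 ± 0.0845 in Intact, 1.58 ± 0.311 in Sham and 4.25 ± 0.109 in pMx (SD, n = 3 each). It lay between 1.25 and 1.92 in the 6 synovium libraries and between 4.16 and 4.37 in the pMx libraries, so the groups were far apart relative to their spread. A two-sided exact permutation test of pMx against Sham gave p = 0.1, the smallest that 3 against 3 allows. Such ratios do not depend on how a library was scaled, but the pairs were chosen after their values were seen.

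**Figure D2:**
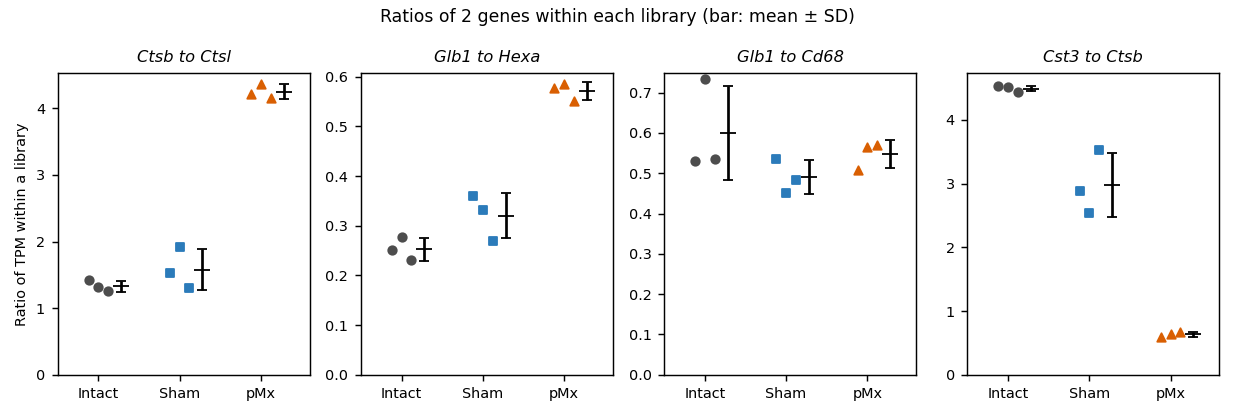
Ratios of TPM between 2 genes within each library for Ctsb to Ctsl, Glb1 to Hexa, Glb1 to Cd68 and Cst3 to Ctsb, by group (points are libraries, bars mean ± SD, n = 3). The ratio of Ctsb to Ctsl was 4.25 in pMx against 1.58 in Sham, and that of Glb1 to Cd68 overlapped between all groups.

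Of the 13 glycosidases and sulfatases, 4 rose and 1 fell in pMx versus Sham, where 17.7% and 18.9% of all genes tested did. Glb1, beta-galactosidase, was at 53.5, 52.0 and 35.3 TPM in Intact 1 to 3, at 78.8, 75.3 and 66.7 TPM in Sham 1 to 3, and at 116, 118 and 108 TPM in pMx 1 to 3. The groups formed 3 steps with no overlap, and pMx exceeded Sham by a fold change of 0.63 (SE 0.15, adjusted p = 0.0107 from limma). This was the largest increase among the 36 genes. It passed an adjusted p of 0.05 in all 21 other fits but did not reach one of 0.01.

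Gusb, beta-glucuronidase, was at 43.4, 41.7 and 27.8 TPM in Intact 1 to 3, at 56.3, 57.9 and 55.1 TPM in Sham 1 to 3, and at 78.9, 82.8 and 77.6 TPM in pMx 1 to 3. It formed the same 3 steps, with a fold change of 0.49 (SE 0.15, adjusted p = 0.0289 from limma) in pMx versus Sham. Gaa, the acid alpha-glucosidase that degrades glycogen, was at 45.6, 53.5 and 44.0 TPM in Sham 1 to 3 and at 65.3, 69.4 and 56.0 TPM in pMx 1 to 3 (fold change 0.41, SE 0.10, adjusted p = 0.0109). Its pMx libraries were all above its Sham libraries, which were all above the Intact libraries at 39.3 to 41.1 TPM. Neu1, the lysosomal sialidase, was at 37.1, 33.9 and 29.8 TPM in Sham 1 to 3 and at 46.1, 47.7 and 39.9 TPM in pMx 1 to 3 (fold change 0.40, SE 0.14, adjusted p = 0.048).

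Manba, beta-mannosidase, was the glycosidase that fell. It was at 23.8, 25.4 and 20.1 TPM in Intact 1 to 3, at 22.4, 19.9 and 21.0 TPM in Sham 1 to 3, and at 16.9, 17.4 and 15.7 TPM in pMx 1 to 3. All pMx libraries were below all others, with a fold change of -0.33 (SE 0.10, adjusted p = 0.0271 from limma). Hexa, the alpha subunit of the beta-hexosaminidase that acts on the ganglioside left by Glb1, had no such increase. It was at 231 ± 13.8 TPM in Sham and 199 ± 2.70 TPM in pMx (SD, n = 3 each; fold change -0.21, adjusted p = 0.171), and the ratio of Glb1 to Hexa was 0.253 ± 0.0231 in Intact, 0.320 ± 0.0452 in Sham and 0.571 ± 0.0182 in pMx (SD, n = 3 each). The remaining 7 (Gla, an alpha-galactosidase, Man2b1 and Fuca1, which remove mannose and fucose from glycoproteins, and Naglu, Idua, Arsb and Sgsh, which degrade glycosaminoglycans) had fold changes from -0.21 to 0.21, and none passed the test.

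Among the 7 lipid-handling genes, none rose and 1 fell, where 17.7% and 18.9% of all genes tested did. Asah1, acid ceramidase, which splits ceramide into sphingosine and a fatty acid, was at 140.2, 135 and 108 TPM in Intact 1 to 3, at 131, 111 and 120.0 TPM in Sham 1 to 3, and at 74.2, 77.6 and 73.3 TPM in pMx 1 to 3. The pMx libraries were below all others, and Intact and Sham overlapped. The fold change of pMx versus Sham was -0.68 (SE 0.10, adjusted p = 0.0012 from limma), and the call held in all 21 other fits and at an adjusted p of 0.01. Npc1, the membrane protein that exports cholesterol from the lysosome, had the largest positive difference of this set. It was at 17.7, 19.3 and 15.1 TPM in Intact 1 to 3, at 18.7, 19.4 and 16.9 TPM in Sham 1 to 3, and at 21.7, 21.9 and 21.3 TPM in pMx 1 to 3 (fold change 0.23, adjusted p = 0.0873). Its soluble partner Npc2 had a fold change of -0.14 (adjusted p = 0.381). Smpd1, acid sphingomyelinase, which makes the ceramide that Asah1 splits, was at 113 ± 3.26 TPM in Sham and 126 ± 2.52 TPM in pMx (SD, n = 3 each; fold change 0.16, adjusted p = 0.127). Psap, the precursor of the sphingolipid activator proteins, had a fold change of -0.03 and Ppt1, a thioesterase that removes palmitate from proteins, one of -0.08, as Lipa, an acid lipase, had one of -0.03. None of these 3 passed the test.

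Of the 5 membrane proteins and the progranulin gene Grn, none rose and 2 fell, where 17.7% and 18.9% of all genes tested did. Scarb2, also called LIMP-2, a membrane protein that also serves as a transport receptor, was at 153, 146 and 122 TPM in Intact 1 to 3, at 116, 112 and 112 TPM in Sham 1 to 3, and at 75.0, 73.3 and 74.2 TPM in pMx 1 to 3. Its groups formed 3 steps downward with no overlap. The fold change of pMx versus Sham was -0.61 (SE 0.08, adjusted p = 0.000587 from limma), and the call held in all 21 other fits and at an adjusted p of 0.01. Lamp2, a lining glycoprotein and receptor of chaperone-mediated autophagy, was at 386, 357 and 370.4 TPM in Sham 1 to 3 and at 297, 276 and 291 TPM in pMx 1 to 3 (fold change -0.36, SE 0.10, adjusted p = 0.0205).

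The other abundant membrane proteins, Lamp1 and Cd63, did not pass the test in the main fit. Lamp1, the sister of Lamp2, was at 757 ± 8.80 TPM in Sham and 689 ± 8.59 TPM in pMx (SD, n = 3 each), without overlap but with a fold change of -0.13 (adjusted p = 0.259 from limma). Cd63 was at 1480.2, 1434 and 1239 TPM in Intact 1 to 3, at 1680.5, 1718 and 1494 TPM in Sham 1 to 3, and at 1891, 1885 and 2001 TPM in pMx 1 to 3 (fold change 0.24, SE 0.10, adjusted p = 0.0800). Each pMx library was above each Sham library. Without Intact 3, Lamp1 was called lower in pMx than in Sham (adjusted p = 0.0394 from limma) and Cd63 higher (adjusted p = 0.0244). The ratio of Lamp1 to Scarb2 rose in steps from 4.38 ± 0.0475 in Intact to 6.67 ± 0.0844 in Sham and 9.30 ± 0.220 in pMx (SD, n = 3 each). Mcoln1, a calcium channel of the lysosomal membrane, had a fold change of 0.18 (adjusted p = 0.136), and Grn one of 0.06 (adjusted p = 0.759).

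**Figure D3:**
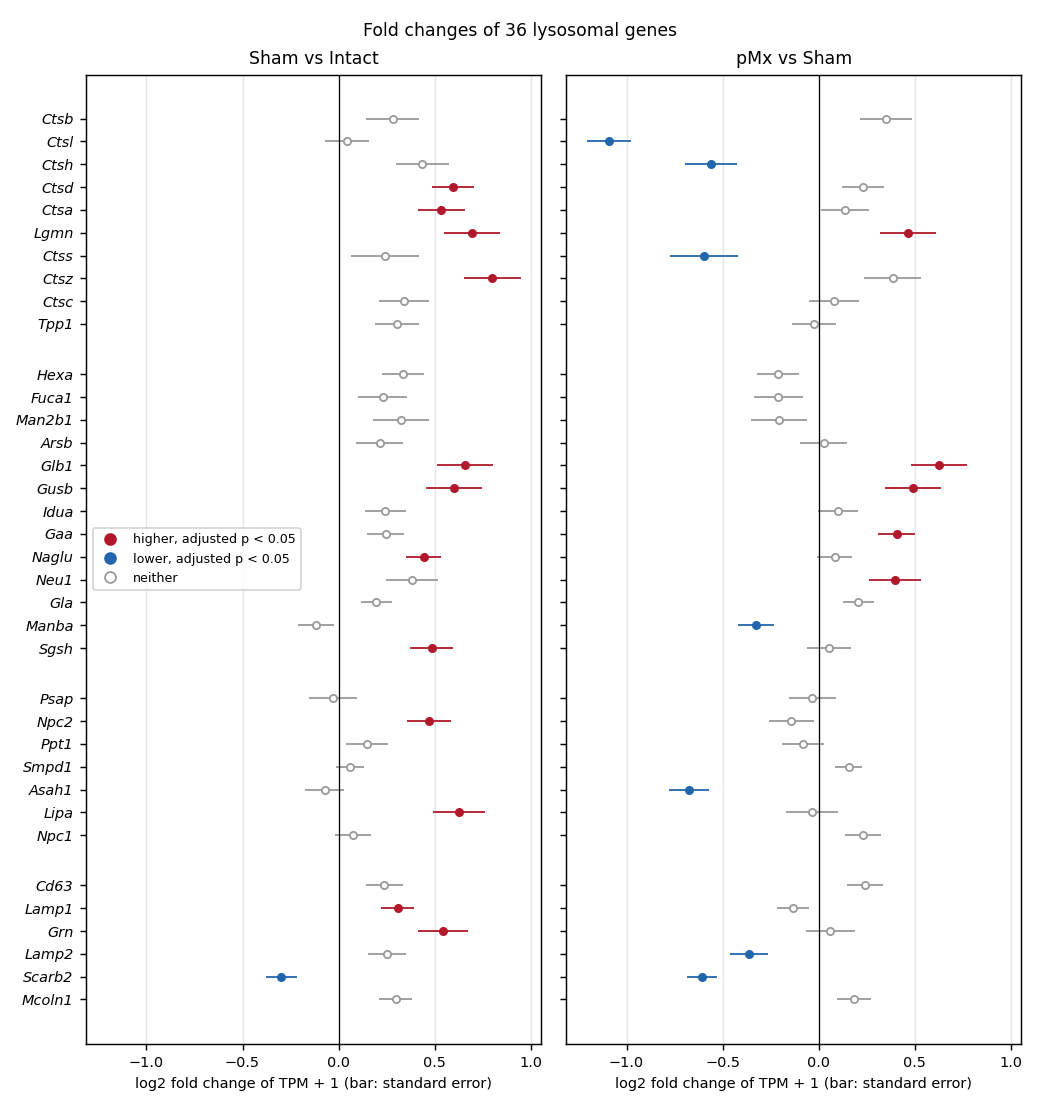
Log2 fold changes of TPM + 1 for the 36 genes in Sham versus Intact (left) and pMx versus Sham (right), with bars of 1 standard error; filled points passed an adjusted p of 0.05. On the left, 12 genes were higher and 1 lower, and on the right 5 were higher and 7 lower.

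By ranges alone, more genes separated than passed the test. In pMx versus Sham all 3 pMx libraries were above all 3 Sham libraries for 13 genes and below them for 12, which is 25 of 36. Over all genes tested, 27.0% separated upward and 29.0% downward. Among the calls, those of Ctsh, Ctsl, Glb1, Gaa, Asah1 and Scarb2 held in all 21 other fits at an adjusted p of 0.05. At 0.01 those of Ctsl, Asah1 and Scarb2 held and those of Ctsh, Glb1 and Gaa did not. The calls of Ctss, Lgmn, Gusb, Neu1, Manba and Lamp2 were each lost in some of the fits that left out a library.

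The second question was what opening the joint did to synovium. In Sham versus Intact more lysosomal genes rose than fell. Of the 36, 12 rose (Ctsa, Ctsd, Ctsz, Lgmn, Glb1, Gusb, Naglu, Sgsh, Lipa, Npc2, Lamp1 and Grn) and 1 fell (Scarb2), where 6.73% of all genes tested rose and 5.97% fell. By limma no gene was a DEG, where 1.96% of all genes tested were DEGs, 1.42% higher and 0.533% lower. The fold change was positive for 32 of 36 genes, with a median of 0.30 against -0.02 over all genes tested. The size of this shift depends on Intact 3. Without it the median was 0.19, 29 of 36 fold changes were positive, and 13 genes rose and 1 fell, where 6.31% of all genes tested rose and 11.8% fell. When limma was fitted to the 6 Sham and Intact libraries alone, no lysosomal gene passed the test in either direction, where 2.46% of all genes tested rose and 1.7% fell, although 17 of the 36 were higher and 1 lower at an unadjusted p below 0.05. RNA integrity, as listed in the supplement of the study, was lowest in Intact, higher in Sham and highest in pMx, with no overlap between the groups, and its part in these results was not tested.

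Ctsz, cathepsin Z, a carboxypeptidase, had the largest increase. It was at 109.6, 95.1 and 73.9 TPM in Intact 1 to 3, at 157, 186 and 141 TPM in Sham 1 to 3, and at 212, 221 and 196 TPM in pMx 1 to 3. The 3 groups did not overlap, and Sham exceeded Intact by a fold change of 0.80 (SE 0.15, adjusted p = 0.0138 from limma), or 0.65 without Intact 3 (adjusted p = 0.0113). Ctsd, the aspartic protease cathepsin D, was at 518, 484 and 431 TPM in Intact 1 to 3 and at 702, 839 and 634 TPM in Sham 1 to 3. Its fold change was 0.60 (SE 0.11, adjusted p = 0.0134), and it was the only one of the 13 calls that held in all 9 fits that left out 1 library. Ctsa, the protective protein cathepsin A that stabilizes Glb1 and Neu1 in a complex, rose by 0.54 (adjusted p = 0.0288) and Lgmn by 0.69 (adjusted p = 0.0208).

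Glb1 rose by 0.66 (SE 0.15, adjusted p = 0.0261 from limma) from Intact to Sham and Gusb by 0.60 (adjusted p = 0.0336). Without Intact 3, in which Glb1 was at 35.3 TPM against 52.0 and 53.5 in the other Intact libraries, the fold change of Glb1 was 0.47 (adjusted p = 0.00759) and that of Gusb 0.40 (adjusted p = 0.00387). Naglu and Sgsh, both enzymes of heparan sulfate breakdown, rose by 0.44 and 0.48 (adjusted p = 0.0196 and 0.0296).

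In the lipid set, Lipa, the acid lipase that frees cholesterol and fatty acids from lipoproteins, was at 47.5, 46.3 and 35.9 TPM in Intact 1 to 3, at 63.4, 80.3 and 58.6 TPM in Sham 1 to 3, and at 64.0, 66.5 and 65.3 TPM in pMx 1 to 3. Its Sham libraries were all above its Intact libraries (fold change 0.63, SE 0.13, adjusted p = 0.0220 from limma), and the pMx libraries lay within the Sham range. Npc2 rose by 0.47 (adjusted p = 0.0343). Grn, which codes for progranulin, a partner of lysosomal enzymes, was at 353, 323 and 236 TPM in Intact 1 to 3, at 436, 438 and 438 TPM in Sham 1 to 3, and at 455, 463 and 452 TPM in pMx 1 to 3 (Sham versus Intact 0.54, SE 0.13, adjusted p = 0.0308). Lamp1 rose by 0.31 (adjusted p = 0.0495) and Scarb2 fell by 0.30 on the log2 scale (adjusted p = 0.0453). The last 2 were the calls closest to the threshold, and that of Scarb2 kept a fold change of -0.40 without Intact 3 (adjusted p = 0.00262).

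Both steps can be set side by side. Lgmn, Glb1 and Gusb rose in Sham versus Intact and again in pMx versus Sham, and Scarb2 fell in both. A further 9 genes (Ctsa, Ctsd, Ctsz, Naglu, Sgsh, Lipa, Npc2, Lamp1 and Grn) rose only in the first step by this test, and Gaa and Neu1 rose only in the second, although the difference between the steps was not tested. Ctsh, Ctsl, Ctss, Manba, Asah1 and Lamp2 fell in the second step without a call in the first, and 15 genes had no call in either. By the order of the group means, 20 of 36 (55.6%) went upward from Intact to Sham to pMx, an order that 27.0% of all genes tested had. Another 7 (19.4%, against 6.33%) were highest in Sham and lowest in Intact, 5 (13.9%, against 11.2%) were highest in Sham and lowest in pMx, and 4 (11.1%, against 33.7%) went downward throughout. None of the 36 was lowest in Sham, where 12.2% and 9.59% of all genes tested had those orders. These orders change without Intact 3. Then 18 genes (50.0%, against 25.5% of all genes tested) went upward throughout, 4 (11.1%, against 5.66%) were highest in Sham and lowest in Intact, 7 (19.4%, against 10.1%) were highest in Sham and lowest in pMx, and 5 (13.9%, against 35.5%) went downward throughout. Smpd1 and Npc1 were then lowest in Sham and highest in pMx (5.56%, against 13.4%).

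Over both steps the differences were larger. In pMx versus Intact 21 of 36 genes rose and 4 (Ctsl, Manba, Asah1 and Scarb2) fell, where 23.4% of all genes tested rose and 27.1% fell (50.6% in either direction). All 3 pMx libraries were above all Intact libraries for 22 genes and below them for 4, against 26.9% and 30.6% of all genes tested. Without Intact 3 it was 22 above and 9 below, against 29.7% and 40.1%. DEGs were Ctsz (1.18), Lgmn (1.16), Glb1 (1.28) and Gusb (1.09) upward and Ctsl (-1.05) downward, with adjusted p of 0.000228, 0.000238, 0.000142, 0.000339 and 0.000104 from limma. That is 5 of 36, where 14.3% of all genes tested were DEGs, 6.40% higher and 7.89% lower. The mean of Glb1 was 2.43 times as high in pMx as in Intact. Scarb2 had the smallest adjusted p of the 36 (fold change -0.90, SE 0.08, adjusted p = 3.28e-05). Without Intact 3, 19 rose and 7 fell, where 22.7% of all genes tested rose and 31.6% fell, and 3 DEGs were higher and 2 lower.

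**Figure D4:**
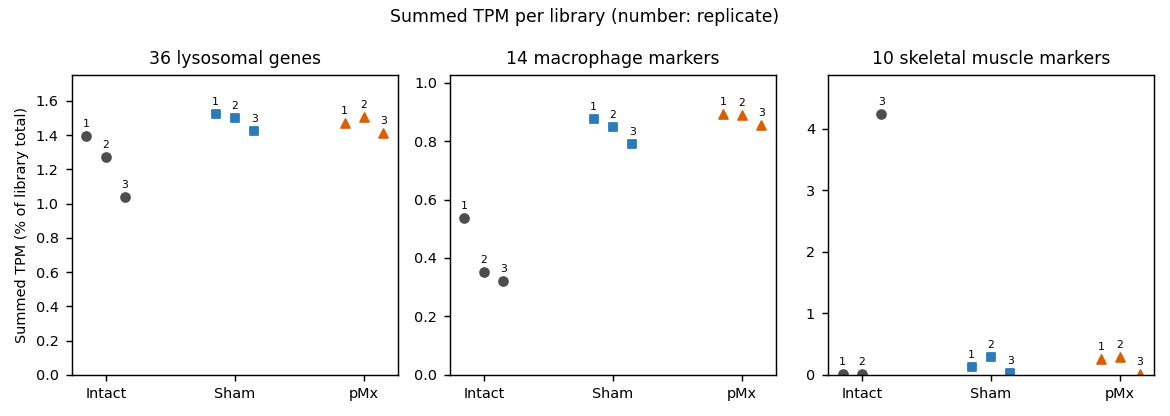
Summed TPM as a percentage of each library's total for the 36 lysosomal genes, 14 macrophage markers and 10 skeletal muscle markers, with points numbered by replicate and all axes starting at 0. The lysosomal sum was 1.48% in Sham and 1.46% in pMx, while Intact 3 stood apart on muscle markers at 4.25%.

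The lysosomal share of all transcripts overlapped between the operated groups. The summed TPM of the 36 genes was 1.395%, 1.271% and 1.04% of the total in Intact 1 to 3, 1.525%, 1.501% and 1.421% in Sham 1 to 3, and 1.468%, 1.505% and 1.411% in pMx 1 to 3. Sham and pMx overlapped, and all 6 operated libraries were above all Intact libraries. The means were 1.24% ± 0.180, 1.48% ± 0.0542 and 1.46% ± 0.0472 (SD, n = 3 each), and two-sided exact permutation tests gave p = 0.6 for pMx against Sham and p = 0.1, the smallest possible, for Sham against Intact and for pMx against Intact. Without the 3 highest genes the sum was 0.880% ± 0.0303 in Sham and 0.848% ± 0.0318 in pMx (SD, n = 3 each).

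Markers of other cell types differed between the groups as well. Their counts below stand beside these shares of all genes tested. In pMx versus Sham 17.7% rose and 18.9% fell, and in Sham versus Intact 6.73% and 5.97% did. Without Intact 3 the shares were 22.1% and 23.5%, and 6.31% and 11.8%. The summed TPM of 14 macrophage markers ran from 0.320% to 0.535% of the total in Intact, from 0.790% to 0.876% in Sham and from 0.854% to 0.894% in pMx. In Sham versus Intact 5 of the 14 rose and none fell, and in pMx versus Sham none rose and 3 fell. Without Intact 3 these counts were 3 higher and 1 lower, and 1 higher and 4 lower. Among those that fell in pMx was Cd163, a scavenger receptor of resident macrophages (27.2 ± 0.844 TPM in Sham and 5.05 ± 1.31 TPM in pMx, SD, n = 3 each, fold change -2.25). Most of the sum was Lyz2, the lysozyme of macrophages, at 5729 ± 388 TPM in Sham and 6654 ± 117 TPM in pMx (SD, n = 3 each). The 6 osteoclast markers summed to between 0.00263% and 0.00409% of the total in Intact, between 0.00592% and 0.0137% in Sham and between 0.0131% and 0.0177% in pMx. From Intact to Sham 2 rose (Acp5 and Mmp9), or 1 without Intact 3, and in pMx versus Sham 1 rose (Acp5). Acp5, the tartrate-resistant acid phosphatase, had means of 33.3, 74.3 and 122 TPM in Intact, Sham and pMx, and Mmp9, a gelatinase, of 0.760, 14.3 and 36.9 TPM. Ocstamp and Calcr had means of at most 0.207 TPM and 0.0733 TPM in any group. In pMx versus Intact 4 of the 6 osteoclast markers rose, 3 of them as DEGs, and none fell. Over all genes tested, 23.4% rose in that comparison and 6.40% were DEGs upward. Of 8 markers of synovial fibroblasts, 2 rose and 3 fell in Sham versus Intact, and 2 rose and 3 fell in pMx versus Sham. Without Intact 3 these counts were 2 higher and 2 lower, and 2 higher and 4 lower. Their sum ran from 0.765% to 0.988% of the total in Intact, from 0.876% to 0.960% in Sham and from 1.16% to 1.27% in pMx. Most of the sum in pMx, which was 11582 to 12683 TPM, was Lum. Thy1 and Lum rose in both steps, with means of 122, 326 and 1037 TPM and of 580, 2180 and 7012 TPM in Intact, Sham and pMx. The lining marker Clic5 fell in both, with means of 462, 239 and 13.1 TPM, while Prg4, lubricin, fell in the first step only by this test, with means of 2646, 1315 and 1453 TPM. All 6 adipocyte markers fell in pMx versus Sham, from 0.452% to 0.0366% of the total. Of 6 endothelial markers, 2 fell in Sham versus Intact, or 5 without Intact 3. In pMx versus Sham none rose and 2 fell, or 2 rose and 2 fell without Intact 3. The part of these shifts in the lysosomal values was not tested.

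Set against Cd68, a lysosomal glycoprotein best known from macrophages, Glb1 formed no steps. The ratio of Glb1 to Cd68 was 0.531, 0.734 and 0.535 in Intact 1 to 3, 0.535, 0.452 and 0.484 in Sham 1 to 3, and 0.509, 0.564 and 0.570 in pMx 1 to 3. All groups overlapped, and the two-sided exact permutation test gave p = 0.2 for pMx against Sham. Cd68 itself rose in both steps, by 0.94 (adjusted p = 0.0098 from limma) and by 0.47 (adjusted p = 0.0428). This pair was chosen after its values were seen. The 14 macrophage markers did not follow Cd68 in the second step, where none of them rose and 3 fell in the main fit. Ratios of Glb1 to those markers were not computed.

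Of 26 other hydrolases outside the 36, 4 rose and 5 fell in pMx versus Sham, where 17.7% and 18.9% of all genes tested did, and 4 rose and none fell in Sham versus Intact, where 6.73% and 5.97% did. Without Intact 3 these counts were 8 higher and 10 lower, and 5 higher and 3 lower. The shares of all genes tested were then 22.1% and 23.5%, and 6.31% and 11.8%. Ctsk, cathepsin K, the collagen-cleaving protease of osteoclasts and activated fibroblasts, was at 350.0, 290.2 and 251 TPM in Intact 1 to 3, at 556, 558 and 555 TPM in Sham 1 to 3, and at 708, 702 and 756 TPM in pMx 1 to 3. It formed 3 steps with no overlap and rose by 0.92 (adjusted p = 0.00382 from limma) and then by 0.37 (adjusted p = 0.0258). Galns, a sulfatase of keratan sulfate and chondroitin sulfate, rose most in pMx versus Sham (0.48, adjusted p = 0.0172), and Ctso, a little-studied cathepsin, fell most (-0.97, adjusted p = 8.5e-05).

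Of 23 other lysosomal membrane genes, 5 rose and 5 fell in pMx versus Sham, and 6 rose and none fell in Sham versus Intact. Without Intact 3 these counts were 6 higher and 6 lower, and 5 higher and 1 lower. Of all genes tested, 17.7% rose and 18.9% fell in pMx versus Sham, and 6.73% and 5.97% in Sham versus Intact. Without Intact 3 the shares were 22.1% and 23.5%, and 6.31% and 11.8%. These shares apply to the other counts of this paragraph too. Slc11a1, the iron and manganese transporter of phagocyte lysosomes, rose from 3.14 ± 0.630 to 9.27 ± 2.59 and 22.8 ± 3.71 TPM (SD, n = 3 each) in Intact, Sham and pMx, with fold changes of 1.29 and 1.23. Lmbrd1, which exports cobalamin, fell by 0.83 on the log2 scale in pMx versus Sham (adjusted p = 0.000279 from limma). Of 18 subunits and accessory proteins of the V-ATPase, the pump that acidifies lysosomes, 2 rose and 2 fell in pMx versus Sham, where Atp6v0a2 had the largest increase (0.51) and Atp6v1d the largest decrease (-0.24). In Sham versus Intact 5 rose and 1 fell, with Atp6v0d2, a subunit of osteoclasts and macrophages, at 1.00 and Atp6v1e1 at -0.25. Without Intact 3, 4 of the 18 rose and 6 fell in pMx versus Sham, and 6 rose and 2 fell in Sham versus Intact.

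Of the genes that deliver the enzymes, Igf2r rose more in pMx versus Sham than any of the 36 did. Igf2r, the large mannose 6-phosphate receptor, was at 24, 25.4 and 22.7 TPM in Intact 1 to 3, at 40.5, 43.2 and 28.6 TPM in Sham 1 to 3, and at 86.6, 96.4 and 85.5 TPM in pMx 1 to 3. The 3 groups did not overlap, and it rose by 0.60 (adjusted p = 0.0292 from limma) and then by 1.25 (SE 0.14, adjusted p = 0.000258). Sort1, sortilin, which sorts prosaposin and some cathepsins by a route that needs no mannose 6-phosphate, fell in both steps, by 0.49 (adjusted p = 0.0373) and 0.68 (adjusted p = 0.00329) on the log2 scale. Of the 10 sorting genes 2 rose (Igf2r and the adaptor Gga2) and 1 fell in pMx versus Sham, and 2 rose and 1 fell in Sham versus Intact. Without Intact 3 these counts were 4 higher and 2 lower, and 2 higher and 2 lower. Of all genes tested, 17.7% rose and 18.9% fell in pMx versus Sham, and 6.73% and 5.97% in Sham versus Intact. Without Intact 3 the shares were 22.1% and 23.5%, and 6.31% and 11.8%.

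Of 16 genes for the transcription factors that drive lysosomal genes and for the sensing machinery around the kinase mTOR, 1 rose and 3 fell in pMx versus Sham. Tfeb was at 26.5 ± 2.39 TPM in Intact, 26.5 ± 2.76 in Sham and 25.5 ± 1.09 in pMx, and Tfe3 at 28.6 ± 3.02, 29.4 ± 1.28 and 29.3 ± 0.501 TPM (SD, n = 3 each), with fold changes of pMx versus Sham of -0.05 and -0.01 (adjusted p = 0.716 and 0.962 from limma). The third family member Mitf was at 28.1, 30.0 and 21.7 TPM in Intact 1 to 3, at 24.2, 22.4 and 23.3 TPM in Sham 1 to 3, and at 13.3, 14.4 and 13.4 TPM in pMx 1 to 3, and fell by 0.73 on the log2 scale (adjusted p = 0.00132). The activity of these factors is set largely by their location in the cell, which RNA levels do not show. Mtor rose by 0.21 (adjusted p = 0.0428). In Sham versus Intact 2 of the 16 rose and none fell, and Tfec, the macrophage member of the family, had the largest increase (0.76, adjusted p = 0.0302). Without Intact 3, 1 rose and 6 fell in pMx versus Sham, and 2 rose and 3 fell in Sham versus Intact. Of all genes tested, 17.7% rose and 18.9% fell in pMx versus Sham, and 6.73% and 5.97% in Sham versus Intact. Without Intact 3 the shares were 22.1% and 23.5%, and 6.31% and 11.8%.

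Of the 7 genes with the core CACGTGAC in their window, 2 rose and none fell in pMx versus Sham, 4 rose and none fell in Sham versus Intact, and 6 rose and none fell in pMx versus Intact. Of the 23 with a window but without the core, 3 rose and 6 fell, 8 rose and 1 fell, and 14 rose and 3 fell in the same comparisons. Over all genes tested, 17.7% rose and 18.9% fell in pMx versus Sham, and 6.73% and 5.97% did so in Sham versus Intact. In pMx versus Intact the shares were 23.4% and 27.1%. The median fold changes of pMx versus Sham were 0.18 with the core and 0.06 without it. In Sham versus Intact they were 0.307 with the core and 0.325 without it, and in pMx versus Intact 0.536 and 0.327. With 7 genes these counts are a description, and no test was made of them.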

How the data were processed

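RNA was sequenced from 3 Intact, 3 Sham and 3 pMx libraries, with group and replicate number read from the sample titles. Per the labels, polyadenylated RNA was selected and made into strand-marked libraries for the BGISEQ-500. The authors deposited 1 table of TPM, with HISAT2 2.0.4 and the rat assembly mRatBN7.2 named in the submitters' processing notes. The counting tool, the annotation and any filter are not given in the sources used here. Each library of the deposited TPM sums to 1000000, so a large rise in a few genes lowers the others, and TPM keeps no read numbers, so the depth is unknown and precision rests on the spread between replicates. The labels call the replicates biological, but no source says whether they were separate animals. The p-values measure the spread between these samples, which may not be the spread between animals.

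Genes listed at more than 0 TPM in 3 or more libraries (16512 of 17602) entered the analysis as log2(TPM + 1). A linear model with 1 mean for each group was fitted over all 9 libraries with limma 3.58.1 in R 4.3.3, and its moderated test used a trend of variance with level and Benjamini-Hochberg adjustment within each comparison. A DEG passed an adjusted p of 0.05 and a log2 fold change beyond 1 either way, the cut-offs in the methods of the study, whose own test is not named. Fold changes on this scale understate those of low genes. SciPy 1.17.1 gave the exact permutation tests and Matplotlib 3.10.9 the figures. The calculation was tested on simulated data.

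The 36 genes and the lists of related genes and cell type markers were chosen with earlier results of these data known. Genes were matched by symbol, or by a synonym for 1 osteoclast marker, and 1 gene of the related lists is not reported here. Hgsnat and Csta were not matched. Values in every library are given for DEGs, Glb1, the 3 most abundant genes and the largest increase and decrease of each role group, and for other genes that passed the test in pMx versus Sham. Of each related list, the gene with the largest increase and the largest decrease among those that passed is named, along with Tfeb, Tfe3, Mitf, Cd68 and Ctsk. Genes named outside these rules, among them Gga2, the single cell type markers and the pairs in ratios, were chosen after their values were seen. Promoter windows came from RefSeq (GRCr8) and were matched by gene identifier for 30 of the 36 genes. That assembly is not the one named for the reads and was used for sequence only.

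Results were recomputed with other pseudocounts (0.1 and 0.01), with all genes or with those averaging at least 1 TPM, after rescaling by median of ratios or quantiles, with only the 6 libraries compared, without the variance trend or with robust moderation, with a replicate block, at an adjusted p of 0.01 and with each library left out. Rescaling without muscle, hemoglobin and collagen genes and a skeletal muscle score as a covariate were added after seeing the data.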

Additional observations from a re-analysis of the deposited data

How the results depend on the processing

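The depth is unknown and each group has 3 libraries. Of the 50 calls of a lysosomal gene in a comparison, none changed sign in any of the 21 other settings. In pMx versus Sham, 5 genes rose and 7 fell. With median-of-ratios rescaling 12 rose, with quantile normalization 8 and with the 6 libraries of the comparison 11. Over all genes tested, 20.5%, 22.5% and 21.2% rose in those fits, against 17.7% in the main fit. With rescaling without muscle, hemoglobin and collagen genes 12 rose, where 21.7% of all genes tested did. At an adjusted p below 0.01 none rose (0) and 3 fell. With each library left out in turn 2 to 12 rose and 4 to 11 fell, where 12.7% to 22.1% and 14.5% to 23.5% of all genes tested did. The count was 2 higher without Sham 1, Sham 3, pMx 1 or pMx 2, and 4 lower without Sham 1, Sham 3 or pMx 3.

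In Sham versus Intact, 12 rose and 1 fell. With median-of-ratios rescaling 20 rose, where 10.1% of all genes tested did. With the 6 libraries of the comparison 0 rose and 0 fell, as at an adjusted p below 0.01, and without the trend 0 fell. Left-out libraries gave 1 to 17 higher and 0 to 1 lower, with the lowest counts without Sham 2 (1), Sham 1 (2), Intact 2 (6) and pMx 2 (7). Over all genes tested, 2.36% to 7.38% rose and 1.54% to 11.8% fell with a library left out. The fall of Scarb2 kept its call in 1 of those 9 fits, the one without Intact 3. With the skeletal muscle score as a covariate all calls of Sham versus Intact held, and Ctsh, Hexa, Lamp2 and Mcoln1 gained one. In that fit 8.84% of all genes tested rose and 9.88% fell. In pMx versus Intact, 21 rose and 4 fell, and left-out libraries gave 16 to 24 and 4 to 7, the last without Intact 3. Of all genes tested, 20.1% to 23% rose and 23.2% to 31.6% fell with a library left out.

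Replicate numbers are shared between the groups. Deviations from the group means had r across genes of 0.0346, 0.368 and 0.485 for same-numbered pMx and Sham libraries and of -0.493 to 0.00161 for Sham and Intact, so the numbers were not taken to pair the samples, and not every library correlated best with its own number. With a replicate block 6 rose and 7 fell in pMx versus Sham, 12 rose and 0 fell in Sham versus Intact, and 22 rose and 4 fell in pMx versus Intact. Over all genes tested the shares in that fit were 17.8% and 17.9%, 5.86% and 3.74%, and 23.5% and 26.2%.

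Differences near 0 that had no call changed sign 28 times, in 16 pairs of gene and comparison, and the cause was not tested. In pMx versus Sham, leaving out libraries gave log2 fold changes of -0.108 to 0.0256 for Tpp1, -0.0273 to 0.0664 for Arsb, -0.0127 to 0.11 for Sgsh, -0.127 to 0.0969 for Lipa and -0.087 to 0.000617 for Psap. Quantile normalization gave 0.0424 for Psap and -0.0344 for Grn, and rescaling without muscle, hemoglobin and collagen genes gave 0.0179 for Tpp1, 0.00735 for Lipa and 0.00977 for Psap. In Sham versus Intact the ranges were -0.0468 to 0.146 for Ctsl, -0.0226 to 0.108 for Smpd1, -0.171 to 0.0503 for Psap and -0.015 to 0.15 for Npc1, and quantile normalization gave 0.00302 for Psap. In pMx versus Intact they were -0.27 to 0.00884 for Ctsh, -0.00709 to 0.233 for Hexa, -0.0642 to 0.213 for Man2b1, -0.144 to 0.15 for Fuca1, -0.0779 to 0.163 for Ppt1 and -0.203 to 0.0182 for Psap, and quantile normalization gave 0.0454 for Psap.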

Other observations

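Cystatins, the inhibitors of papain-type cathepsins, were not among the 36 genes. Cst3, cystatin C, the main secreted inhibitor, was at 11671, 10105 and 8123 TPM in Intact 1 to 3, at 7968, 7219.6 and 8488 TPM in Sham 1 to 3, and at 2034, 2299 and 2167 TPM in pMx 1 to 3. All pMx libraries were below all others, with a log2 fold change of pMx versus Sham of -1.86 (SE 0.15, adjusted p = 7e-05 from limma). Its fall was larger than that of any of the 36 lysosomal genes. The ratio of Cst3 to Ctsb within a library was 4.49 ± 0.0444 in Intact, 2.98 ± 0.497 in Sham and 0.637 ± 0.0418 in pMx (SD, n = 3 each), a pair chosen after its values were seen, so that the inhibitor's transcript exceeded the protease's in all 6 synovium libraries and was below it in all 3 pMx libraries. Cstb, the cytosolic inhibitor cystatin B, rose in Sham versus Intact (0.41, adjusted p = 0.00681) and fell in pMx versus Sham (-0.38, adjusted p = 0.00162). Of the 4 cystatin genes tested, none rose and 2 fell in pMx versus Sham, and 1 rose and none fell in Sham versus Intact, or 1 rose and 1 fell without Intact 3. The shares of all genes tested were 17.7% and 18.9%, and 6.73% and 5.97%, or 6.31% and 11.8% without Intact 3.

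Autophagy, which delivers cell contents to the lysosome, was covered by 21 genes. In pMx versus Sham 3 rose and 5 fell, and in Sham versus Intact 3 rose and 1 fell. Without Intact 3 these counts were 3 higher and 6 lower, and 3 higher and 4 lower. Of all genes tested, 17.7% rose and 18.9% fell in pMx versus Sham, and 6.73% and 5.97% in Sham versus Intact. Without Intact 3 the shares were 22.1% and 23.5%, and 6.31% and 11.8%. Wipi1, which acts early in forming the autophagosome, was at 28.9, 27.9 and 30.5 TPM in Intact 1 to 3, at 42.5, 44.1 and 40.7 TPM in Sham 1 to 3, and at 79.9, 88.4 and 78.0 TPM in pMx 1 to 3. Its groups formed 3 steps with no overlap, and it rose by 0.53 (adjusted p = 0.00447 from limma) and then by 0.94 (adjusted p = 3.84e-05). Gabarapl1, one of the small proteins attached to the autophagosome membrane, was at 156, 163 and 177 TPM in Sham 1 to 3 and at 84.7, 81.7 and 85.1 TPM in pMx 1 to 3 (-0.97, adjusted p = 7e-05). Gabarapl2 of the same family fell in both steps, by 0.39 (adjusted p = 0.0112) and 0.43 (adjusted p = 0.00131) on the log2 scale.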
